A study of Homo sapiens with 12 samples.

Results

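The comparison set cells given 25 µM glycyrrhizin against cells given 25 µM silymarin and asked, for each differing gene, which agent lay away from mock-treated cells. The cells carry the label HepG2, a line derived from a human liver tumour. The groups comprised 3 glycyrrhizin arrays (titled Gly_1 to Gly_3) and 3 silymarin arrays (Sil_1 to Sil_3), which made 6 of the 12 arrays of the series. The 3 arrays with 25 µM ursodeoxycholic acid (Urso_1 to Urso_3) and the 3 mock arrays (Mock_1 to Mock_3, labelled Ctrl) entered the same fit. All cells were grown in DMEM with fetal bovine serum, and each array held Cy5-labelled total RNA in a single colour. Separate cultures are not mentioned in the labels, so a p-value here reflects array-to-array spread that may be technical only. Exposure time is not given in the sources used here.

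Glycyrrhizin is the sweet saponin of liquorice. Its aglycone is known to inhibit 11-beta-hydroxysteroid dehydrogenase, the enzyme pair that interconverts cortisol and cortisone, and glycyrrhizin itself binds the chromatin protein HMGB1. Silymarin is the flavonolignan extract of milk thistle seed, known as an antioxidant. Flavonoids as a class include ligands of the aryl hydrocarbon receptor (AhR), a transcription factor that pairs with ARNT in the nucleus and turns on cytochromes of the CYP1 family.

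Each of 13881 named genes was read from its brightest probe. Values are log2 of the deposited intensity, and a difference is the mean of 3 glycyrrhizin arrays minus the mean of 3 silymarin arrays. The median gene averaged 6.7. The residual SD was 0.67 among the dimmest genes and 0.24 among the brightest, with genes split into 4 equal bins. Of 13 measured hepatocyte identity genes the median level was 6.79. Among them APOB averaged 8.89, TTR 7.77 and AFP 6.89, which are brighter than 81.9%, 68.5% and 53.4% of genes. The catecholamine enzyme TH averaged 12.49 and the intermediate filament VIM 15.53. The hepatocyte list thus did not stand out by brightness on these probes, and the cell label could not be settled from it.

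With limma and Benjamini-Hochberg adjustment over all genes, 7 of 13881 genes differed between glycyrrhizin and silymarin at an adjusted p under 0.05, which is 0.0504% of the genes tested. DCPS and NCBP1 were higher with glycyrrhizin (0.0144% of genes tested), and MIEN1, CYP1B1, CLCN2, HIPK3 and MTERF3 were lower (0.036%). At an unadjusted p under 0.05 there were 1369 genes (9.86%). An agent is said here to lie away from mock where its 3 arrays did not overlap the 3 mock arrays and the 95% interval of its difference from mock left out 0. By that rule, and of the pair compared, glycyrrhizin alone lay away from mock for MIEN1, CLCN2, HIPK3 and MTERF3, silymarin alone for DCPS and NCBP1, and both agents, on opposite sides, for CYP1B1. Ursodeoxycholic acid, outside that pair, also lay below mock by the same rule for 4 of the 7 genes, MIEN1, CLCN2, HIPK3 and MTERF3, so these departures were not particular to glycyrrhizin. Below, "alone" refers to glycyrrhizin and silymarin only. Over all genes 4.56% lay away from mock with glycyrrhizin and 3.98% with silymarin. Both differences from mock use the same mock arrays and 1 of the compared groups, so the side is a description and carries no separate call. An array of the tested pair could not be spared: limma called 0 of the 7 genes when any of the 3 glycyrrhizin arrays or silymarin replicate 1 or 2 was left out, and DCPS alone without silymarin replicate 3.

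**Figure D1:**
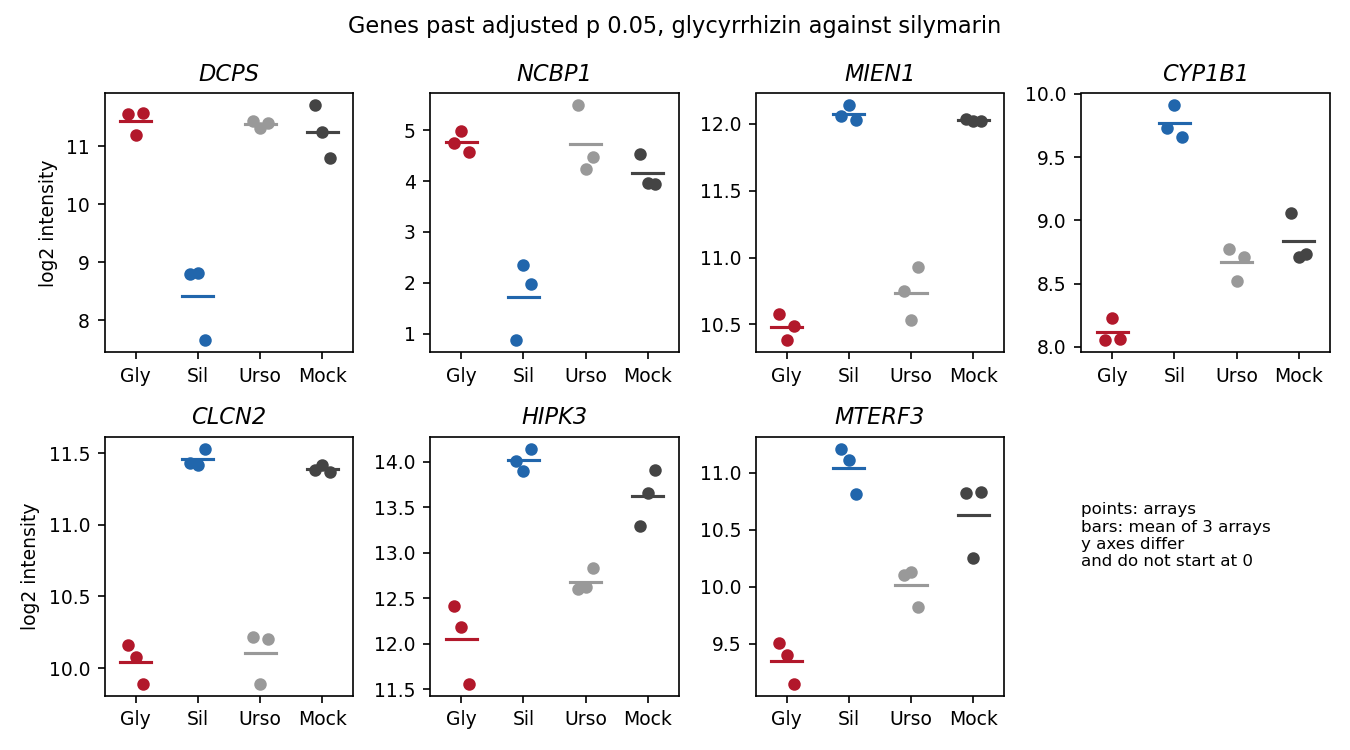
Log2 intensity on each array for the 7 genes past an adjusted p of 0.05 between glycyrrhizin and silymarin; points are arrays, bars the mean of 3 arrays, and the y axes differ. In all 7 panels the glycyrrhizin and silymarin points do not overlap, and the mock points lie beside silymarin for MIEN1 and CLCN2, beside glycyrrhizin for DCPS and between the agents for CYP1B1.

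The 2 genes higher with glycyrrhizin encode cap-binding proteins. Messenger RNA carries a 7-methylguanosine cap. The nuclear cap-binding complex holds it during processing and export, and the scavenger enzyme hydrolyses the cap dinucleotide left when decay runs from the other end. DCPS, that scavenger enzyme, had 11.56, 11.19 and 11.58 with glycyrrhizin, against 8.79, 8.81 and 7.65 with silymarin. The ursodeoxycholic acid arrays had 11.43, 11.32 and 11.4, and the mock arrays 11.71, 11.24 and 10.8. All 3 silymarin arrays were below every other array of the series. The difference was 3.03 (SE 0.33, n = 3 each, adjusted p = 0.00966 in limma), 8.17-fold. From mock, glycyrrhizin differed by 0.19 (95% interval −0.54 to 0.92) and silymarin by −2.84 (−3.57 to −2.11).

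The promoter of DCPS is shown as the start region of the gene with the largest fold given. It covers 250 bases before and 50 after the start in RefSeq, GRCh38.p14, at chr11:126303810-126304109 on the plus strand, and capitals mark GCGTG or its reverse complement, the core that AhR with ARNT binds.
DCPS: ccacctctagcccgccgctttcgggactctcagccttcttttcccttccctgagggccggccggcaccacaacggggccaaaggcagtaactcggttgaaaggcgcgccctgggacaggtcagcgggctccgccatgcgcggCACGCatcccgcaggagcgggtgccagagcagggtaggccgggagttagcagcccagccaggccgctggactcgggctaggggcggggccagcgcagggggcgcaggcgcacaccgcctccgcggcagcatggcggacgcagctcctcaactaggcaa
It holds 1 such core, on the minus strand. Of the promoters of 11151 measured genes in that table, 45.6% hold it on either strand.

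NCBP1, the large subunit of the nuclear cap-binding complex, had 4.74, 4.98 and 4.58 with glycyrrhizin, against 0.87, 2.35 and 1.97 with silymarin. Mock arrays had 4.54, 3.97 and 3.95. The silymarin arrays were lowest here too, but the gene averaged 3.85 over the 12 arrays, against 6.7 for the median gene, and its silymarin values approach the lowest deposited intensity of 1. The difference was 3.04 (SE 0.41, adjusted p = 0.0321 in limma). With 50 added to each intensity before the log the difference was 0.53 and did not pass, and no fold is given. From mock, silymarin differed by −2.42 (−3.33 to −1.52) and glycyrrhizin by 0.61 (−0.3 to 1.52).

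Of 31 measured genes of cap binding, decapping and the exosome, 2 passed higher, DCPS and NCBP1, and 0 passed lower. Over all genes 0.0144% passed higher. The list was written with earlier results of these data known, so that count is not a result about the list. The median difference of the list was −0.04, beside 0.01 over all genes. Other named members were lower in mean with glycyrrhizin and did not pass. The exosome subunit EXOSC2 differed by −0.65, the capping enzyme RNGTT by −0.85 and the decapping activator subunit LSM6 by −0.41.

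The gene with the lowest p was MIEN1, a small membrane-anchored protein linked to AKT signalling and cell migration. It had 10.58, 10.38 and 10.49 with glycyrrhizin, against 12.06, 12.14 and 12.03 with silymarin. Ursodeoxycholic acid arrays had 10.75, 10.53 and 10.93, and mock arrays 12.04, 12.02 and 12.02. Glycyrrhizin and ursodeoxycholic acid arrays were lower than all silymarin and mock arrays, which overlapped each other. The difference was −1.6 (SE 0.17, adjusted p = 0.00966), 3.02-fold lower. Against mock, glycyrrhizin differed by −1.54 (−1.92 to −1.17) and passed over all genes (adjusted p = 0.0295 in limma), a call that ended when any glycyrrhizin, silymarin or mock array or ursodeoxycholic acid replicate 1 was left out (adjusted p up to 0.185). Silymarin differed from mock by 0.05 (−0.32 to 0.42) and ursodeoxycholic acid by −1.29 (−1.66 to −0.92).

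CLCN2, a chloride channel of epithelial membranes, followed the same order of groups. It had 10.16, 10.08 and 9.89 with glycyrrhizin, against 11.43, 11.42 and 11.53 with silymarin. Ursodeoxycholic acid arrays had 10.22, 9.89 and 10.2, and mock arrays 11.38, 11.42 and 11.37. Its difference was −1.41 (SE 0.17, adjusted p = 0.0187), 2.66-fold lower. Glycyrrhizin differed from mock by −1.34 (−1.72 to −0.97), silymarin by 0.07 (−0.31 to 0.44) and ursodeoxycholic acid by −1.29 (−1.66 to −0.91). CYP1A2, an AhR-induced cytochrome of hepatocytes read by 1 bright probe, had 10.26, 9.79 and 9.89 with glycyrrhizin, against 11.1, 11.3 and 11.42 with silymarin and 11.35, 11.39 and 11.2 in mock. Ursodeoxycholic acid arrays had 10.26, 9.9 and 10.34 and also lay below mock, with a difference of −1.14 (−1.59 to −0.7). Between glycyrrhizin and silymarin CYP1A2 differed by −1.29 (SE 0.2) and did not pass (adjusted p = 0.0585 in limma). Across the 12 arrays CLCN2 and CYP1A2 were the named genes most like MIEN1, with a Pearson r of 0.988 and 0.983, as a description of arrays that share labels and normalization. Whether the probes of these genes share sequence was not tested.

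The promoters of these 3 genes are shown because their probe values were alike over the 12 arrays. Each covers the same window in RefSeq, GRCh38.p14. MIEN1 lies at chr17:39730483-39730782 and CLCN2 at chr3:184361556-184361855, both on the minus strand, and CYP1A2 at chr15:74748595-74748894 on the plus strand. Capitals mark GCGTG on either strand or the palindrome CACGTG, the E-box bound by basic helix-loop-helix factors.
MIEN1: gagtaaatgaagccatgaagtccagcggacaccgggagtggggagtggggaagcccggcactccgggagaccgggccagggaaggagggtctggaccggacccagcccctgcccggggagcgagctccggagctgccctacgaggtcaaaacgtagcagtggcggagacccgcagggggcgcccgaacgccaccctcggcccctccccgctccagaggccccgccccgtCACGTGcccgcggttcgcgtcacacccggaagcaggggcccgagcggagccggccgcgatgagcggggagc
CLCN2: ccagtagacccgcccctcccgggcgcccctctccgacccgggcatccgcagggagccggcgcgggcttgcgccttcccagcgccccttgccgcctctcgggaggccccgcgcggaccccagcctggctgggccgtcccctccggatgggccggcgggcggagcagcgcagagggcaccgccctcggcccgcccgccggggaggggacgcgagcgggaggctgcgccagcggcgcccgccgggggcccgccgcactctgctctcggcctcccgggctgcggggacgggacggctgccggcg
CYP1A2: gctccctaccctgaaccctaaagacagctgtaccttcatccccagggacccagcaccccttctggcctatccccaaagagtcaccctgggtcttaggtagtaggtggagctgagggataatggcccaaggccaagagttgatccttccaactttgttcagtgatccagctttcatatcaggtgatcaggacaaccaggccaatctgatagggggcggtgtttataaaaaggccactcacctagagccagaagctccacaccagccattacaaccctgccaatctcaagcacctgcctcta
None of the 3 holds GCGTG in this window, and MIEN1 holds CACGTG, found in 8.97% of the promoters of measured genes. Sequence outside the window was not searched, so the absence of GCGTG here cannot speak to AhR control. MIEN1 and CLCN2 are rich in CpG, with 32 and 44 of these dinucleotides and a GC content of 73% and 82.7%, whereas CYP1A2 holds 1 and has 53%.

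HIPK3, a nuclear kinase of the homeodomain-interacting family, had 12.42, 12.18 and 11.56 with glycyrrhizin, against 14.01, 13.9 and 14.14 with silymarin. Ursodeoxycholic acid arrays had 12.6, 12.62 and 12.83, and mock arrays 13.29, 13.65 and 13.91. The glycyrrhizin and ursodeoxycholic acid arrays were below all mock arrays, and 2 of the 3 silymarin arrays were above all of them. The difference was −1.96 (SE 0.25, adjusted p = 0.0254), 3.9-fold lower. Glycyrrhizin differed from mock by −1.56 (−2.12 to −1.01), silymarin by 0.4 (−0.15 to 0.95) and ursodeoxycholic acid by −0.93 (−1.49 to −0.38). A second, dimmer probe of HIPK3 differed by −0.73 (SE 0.33) and did not pass, and the mean of both probes differed by −1.35, also without passing.

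MTERF3, a regulator of mitochondrial transcription and of mitochondrial ribosome assembly, had 9.51, 9.4 and 9.15 with glycyrrhizin, against 11.21, 11.11 and 10.81 with silymarin. Ursodeoxycholic acid arrays had 10.1, 10.13 and 9.82, and mock arrays 10.82, 10.25 and 10.83. The difference was −1.69 (SE 0.22, adjusted p = 0.0271), 3.23-fold lower. Glycyrrhizin differed from mock by −1.28 (−1.77 to −0.8), silymarin by 0.41 (−0.08 to 0.9) and ursodeoxycholic acid by −0.62 (−1.1 to −0.13). Of 26 measured genes of mitochondrial transcription and translation, MTERF3 was the 1 that passed, and 19 lay below 0, with a median of −0.21 (−0.44 to −0.12 over the alternatives). The related factor MTERF4 differed by −0.68, the elongation factor TUFM by −0.97 and the release factor MTRF1 by −0.51, and none of these passed.

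CYP1B1 was the 1 gene past the threshold for which both agents lay away from mock. It encodes a cytochrome that oxidizes oestrogens and aromatic hydrocarbons and is a textbook AhR target. It had 8.05, 8.23 and 8.06 with glycyrrhizin, against 9.73, 9.91 and 9.66 with silymarin. Ursodeoxycholic acid arrays had 8.77, 8.52 and 8.71, and mock arrays 9.06, 8.71 and 8.73. The order was glycyrrhizin below mock below silymarin, with no overlap between those 3 groups. The difference was −1.65 (SE 0.18, adjusted p = 0.00966), 3.15-fold lower. It was made of −0.72 for glycyrrhizin from mock (−1.12 to −0.32) and 0.93 for silymarin from mock (0.54 to 1.33), neither of which passed over all genes (adjusted p = 0.574 and 0.357).

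Of 8 measured genes of the AhR list 1 passed lower, CYP1B1, 6 lay below 0 and the median difference was −0.18, which was −0.06 without glycyrrhizin replicate 3 and −0.32 without glycyrrhizin replicate 2 or silymarin replicate 3. The receptor AHR itself had 7.67, 7.87 and 7.6 with glycyrrhizin, against 7.81, 7.64 and 8.04 with silymarin, which overlap. It differed by −0.11 (95% interval −0.53 to 0.3). Its partner ARNT differed by 0.26, the aldehyde dehydrogenase ALDH3A1 by 0.31 and the quinone reductase NQO1 by −0.58, none past the threshold. For CYP1A2 silymarin differed from mock by −0.04 (−0.48 to 0.4), while its arrays for CYP1B1 were above all mock arrays.

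**Figure D2:**
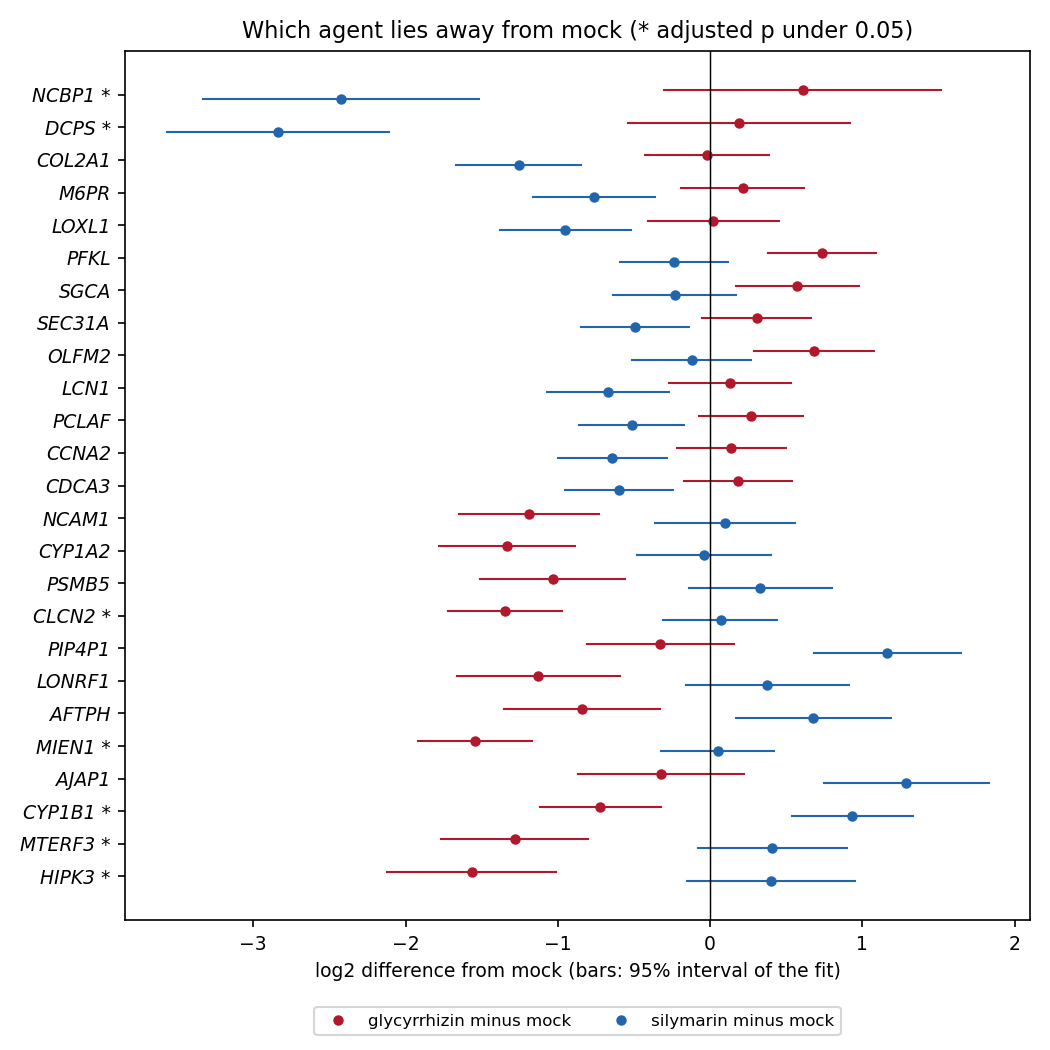
Log2 difference of glycyrrhizin (red) and silymarin (blue) from mock for the 7 genes past the threshold (asterisk) and the brighter genes with the lowest p in each direction; bars are 95% intervals of the fit. For the genes higher with glycyrrhizin most blue points lie left of 0 (DCPS at −2.84, COL2A1 at −1.26), and for the genes lower with glycyrrhizin most red points do (MIEN1 at −1.54, CYP1A2 at −1.33).

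The 12 genes with the lowest p in each direction, among those at or above the median brightness, include 6 of the 7 genes already described. On the higher side 11 of the 12 lay outside the threshold, and of these silymarin alone was away from mock for 8 and glycyrrhizin alone for 3. COL2A1, the fibrillar collagen of cartilage, had 11.84, 12.16 and 12.08 with glycyrrhizin, against 10.53, 10.93 and 10.91 with silymarin and 11.97, 12.17 and 12.01 in mock. Ursodeoxycholic acid arrays had 11.47, 11.37 and 11.57 and also lay below mock, with a difference of −0.58 (−0.99 to −0.17). Between glycyrrhizin and silymarin COL2A1 differed by 1.24 (SE 0.18, adjusted p = 0.0548 in limma). LOXL1, which cross-links elastin and collagen, differed by 0.97, and silymarin minus mock was −0.95. The mannose 6-phosphate receptor M6PR (0.98), the COPII coat subunit SEC31A (0.8) and the lipocalin LCN1 (0.8) followed the same order without passing.

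Bright cell cycle genes stood in that set. The cyclin CCNA2 had 13.98, 14.22 and 14.04 with glycyrrhizin, against 13.29, 13.4 and 13.21 with silymarin and 13.86, 13.92 and 14.04 in mock. It differed by 0.78 and did not pass (adjusted p = 0.134). The PCNA partner PCLAF differed by 0.79 and the mitotic entry factor CDCA3 by 0.78, with silymarin below mock for both. Of 23 measured genes of G2 and mitosis none passed, 12 lay above 0 and the median difference was 0.02, or −0.06 without silymarin replicate 2. The checkpoint kinase BUB1B, dim at 4.06, differed by −2.06.

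Glycyrrhizin alone lay above mock for the liver-type phosphofructokinase PFKL, the secreted olfactomedin OLFM2 and the sarcoglycan SGCA. PFKL, which commits glucose to glycolysis, had 14.09, 13.93 and 13.95 with glycyrrhizin, against 12.94, 13.11 and 13.01 with silymarin and 13.19, 13.35 and 13.23 in mock. Ursodeoxycholic acid arrays had 13.74, 13.56 and 13.72 and also lay above mock, by 0.42 (0.06 to 0.77). Between glycyrrhizin and silymarin PFKL differed by 0.97 (SE 0.16, adjusted p = 0.0744 in limma) and its other probe by 0.73, neither past the threshold. Of 22 measured genes of glycolysis and gluconeogenesis 0 passed and 14 lay above 0, with a median of 0.08, or 0.02 without glycyrrhizin replicate 2. On 5 of them all glycyrrhizin arrays were above all silymarin arrays (22.7%, beside 9.07% of all genes). On 1 all were below (4.55%, beside 9.16%). This list was brighter than the median gene, at a median level of 8.04 against 6.7. Neuronal enolase ENO2 differed by 0.61, hexokinase HK1 by 0.45, aldolase ALDOC by 0.44 and platelet-type phosphofructokinase PFKP by −0.73. The mean of the 2 probes of ALDOC differed by 0.04.

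On the lower side 7 of the 12 brighter genes lay outside the threshold, and of these glycyrrhizin alone lay away from mock for 4, silymarin alone for 2 and both, on opposite sides, for 1. The catalytic proteasome subunit PSMB5 had 11.72, 12.04 and 11.39 with glycyrrhizin, against 13.06, 13.08 and 13.1 with silymarin and 12.96, 12.54 and 12.76 in mock. It differed by −1.37 (SE 0.21, adjusted p = 0.0596). NCAM1, a neural cell adhesion molecule, differed by −1.28, and LONRF1, a RING finger protein, by −1.5, both with glycyrrhizin below mock. Silymarin alone lay above mock for the phosphoinositide phosphatase PIP4P1, with 7.9, 8.02 and 7.61 with glycyrrhizin, against 9.52, 9.53 and 8.94 with silymarin and 8.16, 8.06 and 8.29 in mock. The junction protein AJAP1 was the other, differing by −1.61, with silymarin 1.29 above mock. None of these 5 passed.

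Among dim genes the 4 with the lowest p on the higher side were NCBP1, the polarity protein CRB3 (1.61), the FGF co-receptor subunit KLB (1.19) and the Elongator-associated KTI12 (1.3), each with silymarin below mock. On the lower side stood the spliceosomal Sm protein SNRPD2 (−2.1), the GTPase REM2 (−1.22) and the transcription factors KLF8 (−2.62) and SP5 (−2.04). Only NCBP1 of these 8 passed. With an offset of 50 the 8 differences shrank, to 0.34 for CRB3 and −0.67 for KLF8. For KLF8 neither agent lay away from mock, since its mock arrays ran from 3.13 to 4.96.

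**Figure D3:**
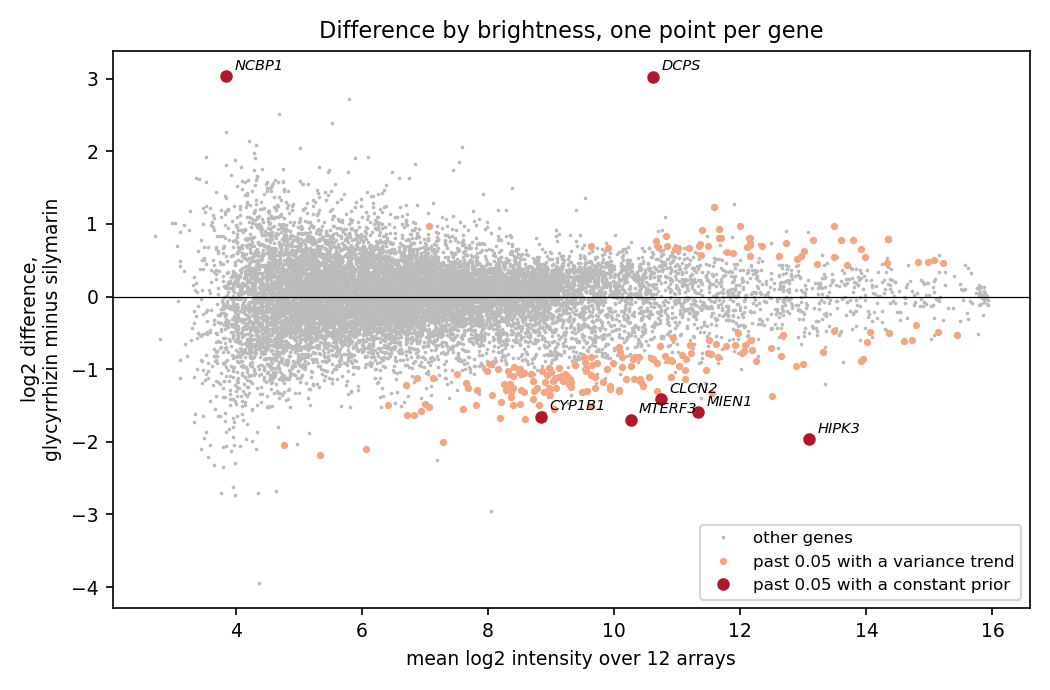
Log2 difference of glycyrrhizin minus silymarin against mean log2 intensity over 12 arrays, with 1 point per gene. Genes past an adjusted p of 0.05 with a constant prior are red, and those past it with a variance trend are orange; the orange points lie mostly above the median level of 6.7, with 165 below 0 and 52 above 0.

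The spread fell with brightness, and a limma fit that lets the prior variance follow brightness, with robust estimation, called 217 genes, 1.56% of those tested, 52 higher (0.375%) and 165 lower (1.19%) with glycyrrhizin. All 7 genes named above were among them. Of the 165 lower genes, glycyrrhizin alone lay below mock for 98, silymarin alone above mock for 23, both for 11 and neither for 33. Of the 52 higher genes, silymarin alone lay below mock for 23, glycyrrhizin alone above mock for 15 and neither for 14. Over all genes 2.62% lay below mock with glycyrrhizin and 2.26% above mock with silymarin, and 1.94% lay above mock with glycyrrhizin and 1.71% below mock with silymarin. The 165 and 52 genes were selected by their difference on these same arrays, which favours such departures. The shares over all genes are therefore not a baseline for them.

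Over all genes tested, 11 (0.0792%) had glycyrrhizin below mock and silymarin above mock, and 0 had the opposite order. All 11 were among the 165. They were CYP1B1, SNRPD2, the trafficking adaptor AFTPH, RAB5IF, the COP9 signalosome subunit COPS4, the substrate receptor BTRC of an SCF ubiquitin ligase, the poly(ADP-ribose)-dependent ligase RNF146, the cullin neddylation factor DCUN1D1, the endoplasmic reticulum peroxiredoxin PRDX4, the COPI coat subunit COPB1 and the ESCRT-I subunit VPS37A. COPS4 had 8.7, 7.9 and 7.94 with glycyrrhizin, against 9.76, 10.01 and 9.42 with silymarin and 9.21, 8.89 and 9.15 in mock. BTRC had 8.75, 8.86 and 8.47 with glycyrrhizin, against 9.93, 9.98 and 9.62 with silymarin and 9.21, 8.89 and 9.37 in mock. Of the 11, CYP1B1 alone passed with the constant prior. The other 10 were picked out for these values.

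**Figure D4:**
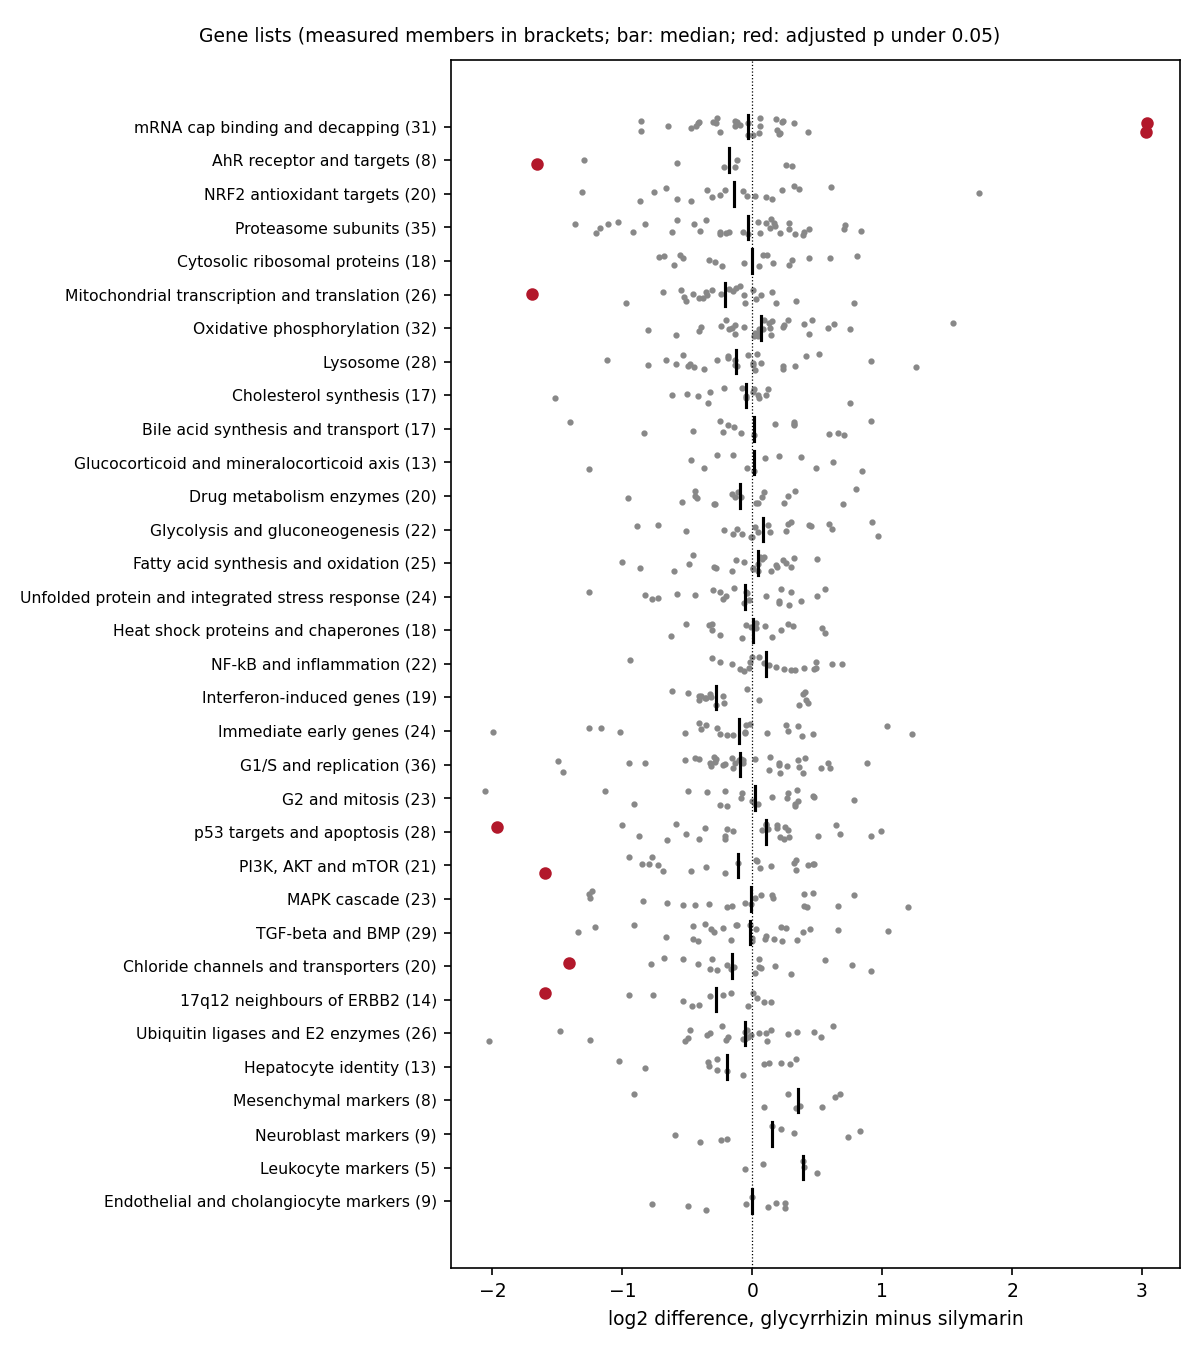
Log2 difference of glycyrrhizin minus silymarin for the measured members of 33 gene lists, with the number measured in brackets; each point is a gene, bars are medians and red points passed an adjusted p of 0.05. List medians run from −0.28 to 0.39, and the red points of the cap list lie near 3 while the other red points lie below −1.

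Across 33 gene lists, 7 held a member past the threshold and 26 held none. The lists were written with earlier results of these data known. MIEN1 is in both the 17q12 list and the PI3K, AKT and mTOR list. Those counts thus depend on how the lists were made. List medians ran from −0.28 to 0.39, beside 0.01 over all genes. These medians were small and unsteady: 13 of the 33 turned sign under at least 1 alternative setting or left-out array. In the proteasome list 0 of 35 passed, 18 lay below 0 and the median was −0.04. On 9 of them (25.7%, beside 9.16% of all genes) every glycyrrhizin array was below every silymarin array. On 4 (11.4%, beside 9.07%) every one was above. The list's median level was 9.32, against 6.7 over all genes, and spread fell with brightness. The share over all genes is therefore not a like baseline. Such lower shares stood in other lists too, with 27.8% for cytosolic ribosomal proteins and 28.6% for PI3K, AKT and mTOR. The proteasome activator PSME4 differed by −1.2, the deubiquitinase subunit PSMD14 by −1.17, PSMD11 by −1.03 and PSMD3 by −0.83. Against mock glycyrrhizin differed by −0.69, −1.05, −0.64 and −0.23 in that order, and silymarin by 0.51, 0.12, 0.4 and 0.6. By the rule above glycyrrhizin lay below mock for PSME4 and PSMD14, and silymarin above mock for PSMD3. Ursodeoxycholic acid also lay below mock for PSMD14, by −0.93 (−1.57 to −0.28). When all probes of a gene were averaged, the list's median was −0.26, and without glycyrrhizin replicate 3 it was 0.05. The ubiquitin conjugating enzyme UBE2H differed by −1.48, the scaffold CUL1 by −1.25 and the receptor DCAF10 by −2.03. For DCAF10 both agents lay below mock, by −3.48 with glycyrrhizin and −1.45 with silymarin, and neither difference passed. Ursodeoxycholic acid also lay below mock for DCAF10, by −1.97. Glycyrrhizin and ursodeoxycholic acid lay below mock for UBE2H, by −1.26 and −0.88, and for CUL1, by −1.23 and −0.77. DCAF10 was dim, at 4.97, and with an offset of 50 its difference between the agents was −0.54. None of 26 ubiquitin ligases and conjugating enzymes passed, and their median was −0.05.

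Immediate early genes, which respond to growth factors and stress within minutes, gave 0 of 24 past the threshold and 16 below 0, with a median of −0.1, or −0.24 without silymarin replicate 3. On 7 of them (29.2%, beside 9.16% of all genes) the glycyrrhizin arrays were all lower, and on 3 (12.5%, beside 9.07%) all higher. This list's median level was 8.22, against 6.7 over all genes, so that share is again not a like baseline. FOS had 5.28, 7.15 and 6.96 with glycyrrhizin, against 8.46, 8.67 and 8.26 with silymarin and 7.46, 7.24 and 7.79 in mock. The groups did not overlap, glycyrrhizin replicate 1 stood apart, and the difference of −2 (SE 0.44) did not pass (adjusted p = 0.153). The zinc finger factor KLF4 differed by −1.16 and the MAP kinase phosphatases DUSP1 and DUSP4 by −1.26 and −1.02. Silymarin alone lay above mock for DUSP1 (0.91), while for KLF4 and DUSP4 the mock mean lay between the agents and the mock arrays overlapped those of glycyrrhizin. The stress gene IER5 differed by 1.23 the other way, with overlapping mock arrays.

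Stress, signalling and metabolic lists held few large differences. Of 24 genes of the unfolded protein and integrated stress responses 0 passed, 15 lay below 0 and the median was −0.06, or −0.21 without silymarin replicate 3. The sensor kinase EIF2AK3 (PERK) had 8.9, 9.14 and 9.23 with glycyrrhizin, against 10.1, 10.52 and 10.41 with silymarin and 10.27, 9.75 and 9.58 in mock, a difference of −1.25 that did not pass. Downstream DDIT3 differed by −0.83 and DDIT4 by −0.78. In the MAP kinase list 0 of 23 passed. There the kinase MAP4K4 differed by −1.25 (−0.76 for the mean of its 2 probes), with glycyrrhizin and ursodeoxycholic acid below mock. HRAS differed by −0.84, with silymarin above mock. The proton pump subunits ATP6V0D1 and ATP6V1H differed by −0.8 and −0.67 in a lysosome list with 0 of 28 past the threshold. Of 18 ribosomal proteins 0 passed, with RPL8 at −0.6 and RPL30 at −0.53.

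Further measured genes tied to the known actions of the agents did not pass. HSD11B1, which regenerates cortisol, had 6.28, 6.04 and 5.42 with glycyrrhizin, against 5.44, 6.85 and 6.84 with silymarin, so the groups overlapped (difference −0.47, interval −1.51 to 0.58). HSD11B2, the other enzyme of the pair, was not among the measured genes. The glucocorticoid receptor NR3C1 was dim at 4.04 and its interval ran from −1.33 to 2.57. HMGB1 had 15.66, 15.9 and 15.74 with glycyrrhizin, against 15.29, 15.44 and 15.37 with silymarin, which did not overlap, but the difference of 0.4 did not pass (adjusted p = 0.483). In the NRF2 antioxidant list 0 of 20 passed, with malic enzyme ME1 at −0.86. In bile acid genes 0 of 17 passed, with the phospholipid exporter ABCB4 at −1.4 (SE 0.43). In cholesterol synthesis 0 of 17 passed, with squalene epoxidase SQLE at −0.5.

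Markers of other cell types were set beside these values. Of 8 mesenchymal markers 7 lay above 0 with glycyrrhizin and the median was 0.35. The arrays of 4 of them did not overlap on the higher side (50%, beside 9.07% of all genes). Those of 1 did not overlap on the lower side (12.5%, beside 9.16%). Their summed intensity ran from 43667 to 58204 with glycyrrhizin, from 43867 to 48526 with silymarin and from 41221 to 58822 in mock, mostly VIM. The 9 neuroblast markers summed to 10217 to 13462 with glycyrrhizin, 8183 to 9383 with silymarin and 9210 to 10734 in mock. Of these 9, 5 lay above 0 and 4 below, with a median of 0.15. The arrays of 3 did not overlap on the higher side (33.3%, beside 9.07% of all genes). Those of 0 did so on the lower side (0%, beside 9.16%). This list's median level was 8.77, against 6.7 over all genes, so that share is not a like baseline. TH differed by 0.74 and the lowest member by −0.6. The 9 endothelial and cholangiocyte markers summed to 2181 to 2378 with glycyrrhizin, 2046 to 2140 with silymarin and 1979 to 2174 in mock. The 5 leukocyte markers summed to 1278 to 1574 with glycyrrhizin, 936 to 1243 with silymarin and 953 to 1425 in mock. The 13 hepatocyte genes summed to 1632 to 1756 with glycyrrhizin, 1611 to 1936 with silymarin and 1634 to 1920 in mock. The lowest deposited intensity is 1, so a sum above 0 does not show that a marker is expressed. None of these markers passed the threshold. Their part in the results was not tested.

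The neighbours of MIEN1 on 17q12, next to ERBB2, were listed because amplicons of that region carry them together. Of 14 measured 1 passed, MIEN1, and 10 lay below 0, with a median of −0.28, or −0.11 without glycyrrhizin replicate 2. The cholesterol transporter STARD3 had 9.59, 9.84 and 9.69 with glycyrrhizin, against 10.64, 10.41 and 10.36 with silymarin and 10.23, 9.85 and 10.25 in mock. It differed by −0.76 and the adaptor GRB7 by −0.46, without passing. Among 20 chloride channels and transporters CLCN2 was the 1 that passed. There CLCN3 differed by −0.78, with silymarin above mock, and CLIC5 by 0.77, with silymarin and ursodeoxycholic acid below mock. The mean of the 2 probes of CLCN3 differed by −0.14.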

How the data were processed

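Per the table header and values, the authors deposited 1 linear intensity per probe and array for 27561 probes on 12 arrays, already brought to a common distribution: at a given rank the arrays spread by a median of 1.22%. The submitters' processing notes name limma; which scanner and background correction were used is not given in the sources used here. Detection calls were not used, so background level is unknown for dim probes; precision rests on 3 arrays a group. Platform annotation gave 15650 probes a single symbol and 11911 none. The symbols of 2355 probes were updated through RefSeq, and 13881 genes were kept by the probe with the highest mean log2 intensity. Limma 3.58.1 (R 4.3.3) took the log2 values through lmFit and eBayes, with 4 group means, 8 residual and 2.7 prior degrees of freedom, two-sided tests and Benjamini-Hochberg adjustment over 13881 genes. The fit was tested on simulated arrays. Named genes are those past the threshold, 12 brighter and 4 dimmer genes per direction with the lowest p, and 5 members per list, plus genes past the threshold with the variance trend and 4 named whatever their values (AHR, HSD11B1, NR3C1, HMGB1). Genes most like a called gene had the highest Pearson r over the 12 arrays. The levels of APOB, TTR and VIM, given in the check of the cell label, were chosen after their values were seen. Members, lists and rules were chosen with earlier results of these data known.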

Additional observations from a re-analysis of the deposited data

Results flagged for a closer look

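CYP1B1 was picked out because every glycyrrhizin array lay below the mock arrays and every silymarin array above them, and the difference between the agents, −1.65, passed the adjusted threshold. The same order held for SNRPD2, which differed by −2.1, and for AFTPH, which differed by −1.52; limma's adjusted p was 0.0548 for each, outside the threshold.

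Among probes without a gene symbol, PH_hs_0036054 averaged 7.9 with glycyrrhizin, 9.43 with silymarin and 8.54 in mock. It was picked out as a signal outside the named genes, with silymarin above the mock arrays. In a limma fit over all 27561 probes it differed by −1.53 between glycyrrhizin and silymarin (adjusted p = 0.0433).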

How the results depend on the processing

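Of the 7 calls, 7 remained with quantile normalization applied again, 7 with every probe of a symbol kept and 6 with a gene's probes averaged, where HIPK3 was lost. The counts (higher and lower) were 19 (3 and 16) with an offset of 16, 129 (21 and 108) with an offset of 50, 164 (27 and 137) without the dimmer 50% of genes, 217 (52 and 165) with the variance trend, 20 (4 and 16) with array weights and 10 (2 and 8) over all probes of the table. The lower share was 71.4% as reported, 84.2% and 83.7% with the offsets. Limma called 0 genes with the glycyrrhizin and silymarin arrays alone (1421 at an unadjusted p under 0.05) and 0 against a 1.5-fold difference (187). With the replicate number as a block it called 0 (1301 at an unadjusted p under 0.05). Whether a shared number marks a shared culture or batch is not given in the sources used here. Deviations from the group means correlated at −0.019 to 0.153 between same-numbered glycyrrhizin and silymarin arrays. Between differently numbered ones they correlated at −0.209 to 0.102. With 3 arrays a group these values cannot decide whether the arrays are paired.

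Without each array in turn the count ran from 0 to 6, with 0 to 2 higher and 0 to 5 lower. Without a mock or ursodeoxycholic acid array 4 to 6 genes passed, NCBP1, MTERF3 or HIPK3 being the ones lost. Differences of the called genes kept their direction, from −1.64 to −1.54 for MIEN1, −1.71 to −1.58 for CYP1B1 and 2.65 to 3.23 for DCPS. Differences of single genes that turned were NR3C1 at −0.17 without silymarin replicate 3 (up to 1.15 without silymarin replicate 2), NQO1 at 0.02 without glycyrrhizin replicate 3 (down to −0.88 without replicate 1), IRF1 at −0.33 with its probes averaged, and DCPS from mock with glycyrrhizin at −0.03 without mock replicate 3 (up to 0.42 without mock replicate 1). Of 33 list medians 13 turned sign under at least 1 alternative, among them those of G2 and mitosis, lysosome, cholesterol synthesis and p53. The causes were not tested. Signal near the lowest intensity limits NCBP1 and the other dim genes.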

Other observations

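Several probes without a gene symbol followed the group order of MIEN1, a pattern chosen after its values were seen. Over the 12 arrays the 8 probes of the whole table most like the MIEN1 probe had a Pearson r of 0.943 to 0.991, and 6 of them have no symbol here. Whether these probes share sequence with each other or with MIEN1 was not tested. PH_hs_0039308 averaged 12.15 with glycyrrhizin, 13.74 with silymarin, 12.26 with ursodeoxycholic acid and 13.56 in mock. PH_hs_0002361 averaged 12.29 with glycyrrhizin, 13.86 with silymarin, 12.2 with ursodeoxycholic acid and 13.7 in mock. In the fit over all probes these differed by −1.59 and −1.57 between glycyrrhizin and silymarin, with an adjusted p of 0.0228 and 0.0427 in limma. The secreted protein gene OAF, whose r with CLCN2 was 0.965, averaged 11.22 with glycyrrhizin, 12.04 with silymarin, 11.17 with ursodeoxycholic acid and 12.16 in mock.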
